A study of Drosophila melanogaster with 2 samples.

Results

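The genes described here are 36 chromatin regulators of Drosophila melanogaster: Polycomb and Trithorax genes, nucleosome remodellers and histone chaperones, insulator proteins, and deacetylase and heterochromatin genes. They were chosen by name, with the subunits of the Brahma complex left out, and all 36 were found among the 14284 genes of the count tables. Each had at least 193 read pairs in either library, so all 36 passed the filter that defines a measured gene (counts summing to at least 20), as did 9142 genes in all.

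The study compared 1 control library with 1 brat RNAi library of polyA RNA from cells sorted out of larval brains late in the third instar. By the labels, the sort took type II neuroblasts, the neural stem cells that divide through intermediate progenitors, and their 24 h progeny by a membrane-bound GFP (UAS-CD8::GFP). Brat is a tumour suppressor of these lineages, and the study's title names Deadpan and Zelda as the factors it inhibits. Both groups carried the drivers wor-Gal4 and asense-Gal4, UAS-CD8::GFP, tub-Gal80ts and UAS-dicer2, and the brat RNAi group also carried the hairpin VDRC TID:105054. Both were raised at 18 °C, shifted to 29 °C by the third instar and dissected 24 h later. The Gal4 drivers act in neuroblasts, so the hairpin and the GFP mark depend on the same drivers, and progeny were sorted through GFP that they inherit or still make. asense is known as a gene of type I neuroblasts that type II neuroblasts lack, so with the drivers as the labels spell them type I lineages could carry GFP too, and how many the sort held was not tested. The number of brains behind each library is not given in the sources used here.

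Polycomb proteins keep developmental genes silent and Trithorax proteins keep them active. Polycomb repressive complex 2 (PRC2) methylates a lysine of histone H3, and PRC1 binds that mark, ubiquitinates histone H2A and compacts chromatin. Trithorax-group methyltransferases and remodellers act on the same targets in the opposite direction. Remodellers move, space or exchange nucleosomes, and insulator proteins mark the borders of chromatin domains. In the larval fly brain, Polycomb genes are known to keep neuroblasts alive by silencing Hox genes, and trx is known to maintain the identity of type II neuroblasts.

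With 1 library a group there is no replicate check and no test. Each log2 ratio is brat RNAi over control, from counts divided by median-of-ratios size factors, and the range in parentheses is a 95% exact counting interval. That interval covers counting error only. The control library held 16566265 gene counts and the brat RNAi library 15236504. The targeted gene, brat, had 12210 and 6312 counts, a log2 ratio of -0.69 (-0.73 to -0.65), in the direction of the labels. Fewer cells of a type and less RNA per cell cannot be told apart in these bulk libraries.

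Markers of other cell types moved between the libraries. The 11 neuroblast markers used are not all particular to type II neuroblasts. Their summed normalised count was 59136 in the control against 85840 with brat RNAi (log2 ratio 0.54), of which mira alone gave 24012 and 32542. Of the 11, 10 had an interval above 0, and Sp1 was at -0.02 (-0.07 to 0.02). The list includes dpn and vfl (Zelda), genes of the factors named in the title. The corresponding log2 ratio of sums was 0.10 for the type I neuroblast and ganglion mother cell markers ase (-0.27 by itself) and pros (0.18). It was 0.11 for 4 intermediate progenitor markers, 0.04 for 8 neuron markers, 0.04 for 7 glia markers and 0.40 for 6 hemocyte markers. These sums follow their most abundant genes. Of the glia markers, 1 interval (Eaat1) lay above 0 and 3 below. Of the hemocyte markers, 3 lay above 0 and 1 below (He, at -1.32), and of the neuron markers 2 above and 2 below. The log2 ratios of sums were -1.15 for 10 muscle markers, -0.88 for 5 fat body markers and -3.65 for 9 female germline and yolk protein genes. Among the fat body markers, Fbp1 went the other way, at 1.26 (0.03 to 2.60) on 9 and 18 counts. Of the 9 germline and yolk protein genes, 8 had an interval below 0, and vas was at 0.27 (-0.04 to 0.58). No marker was at 0 in the control, while wupA of muscle and osk of the germline were at 0 in the brat RNAi library. The part of these mixtures in the ratios of the regulators was not tested.

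As a group the regulators were slightly higher in the brat RNAi library. Their median log2 ratio was 0.24, against 0.00 over all 9142 measured genes, and single values ran from -0.10 (Sce and E(z)) to 0.87 (ash1). Ratios were above 0 for 31 of 36, against 50.4% of all measured genes. Total count scaling lowers every ratio by 0.14, which takes the median of all measured genes to -0.14. It left 22 of 36 regulators above 0, with a median of 0.10. Counting intervals lay wholly above 0 for 25 of the 36 (69.4%), against 30.7% of all measured genes, and wholly below 0 for none, against 24.3%. With total count scaling 19 of the 36 intervals lay above 0, against 20.2% of all measured genes, and 10 below, against 38.2%. The regulators are abundant genes, and abundant genes have narrow intervals. When the filter was raised to an average of 100 normalised counts, 6757 genes were left. With median-of-ratios scaling, 39.6% of their intervals lay above 0 and 24.1% below. How far abundance alone accounts for the 69.4% of the regulators was not tested.

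Few of them were far apart. Only ash1, dom, kis and Trl were at least 1.5-fold higher, which is 11.1% of the 36 against 5.93% of all measured genes. None was at least 1.5-fold lower, where 8.32% of all genes were, and none was 2-fold higher (1.15% of all genes) or 2-fold lower (4.48%). These shares include many scarcer genes. Of the 6757 genes averaging at least 100 normalised counts, as all 36 do, 6.38% were 1.5-fold higher and 3.05% lower. Only 1.30% of them were 2-fold apart. In the authors' deposited table, the adjusted p-value was 0.706 for ash1 and of 1 for the other 35 regulators, and those values also rest on 1 library against 1. Together the 36 genes took 0.985% of the control and 1.10% of the brat RNAi gene counts.

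**Figure D1:**
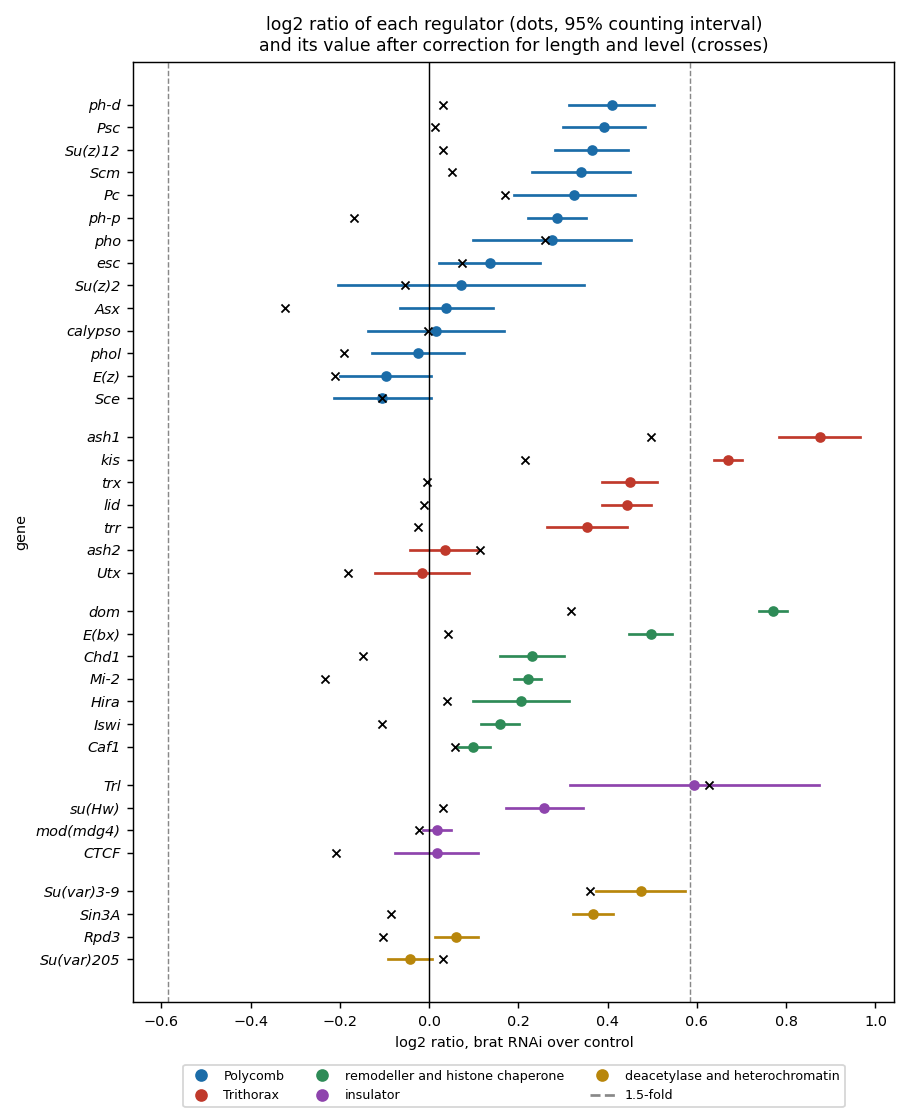
Horizontal axis, log2 ratio of brat RNAi over control; vertical axis, the 36 regulators by group. Dots are ratios with 95% counting intervals, crosses are ratios after correction for transcript length and level, and dashed lines mark 1.5-fold. The dots of ash1, kis, dom and Trl lie past 1.5-fold, whereas only the cross of Trl does.

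Transcript length went with these ratios. Over the 36 regulators, Spearman's rho between log2 ratio and log2 transcript length was 0.65 and Pearson's r was 0.66, and over all 8875 measured genes with a length rho was 0.40. Level went with the ratios too. Between log2 ratio and log2 mean normalised count, rho was 0.21 over the 36 regulators and 0.40 over the 8875 genes. These are descriptions across genes of the same pair of libraries. The regulators have long transcripts, with a median of 3546.5 bases against 2009.5 for all measured genes, and 15 of them fall in the longest decile. In that decile, the median log2 ratio was 0.32 over all 887 genes and 0.39 over the 15 regulators. At least 1.5-fold higher were 15.0% of all its genes and 3 of its 15 regulators, namely ash1, dom and kis. Outside it the median log2 ratio was -0.03 over all genes and 0.10 over the 21 regulators. There 4.87% of all genes and 1 of 21 regulators, namely Trl, were at least 1.5-fold higher.

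From each ratio, the median over all genes of matching length decile and level decile was therefore also subtracted. The regulators' median became 0.0061, with 18 above 0 and 18 below. Above 0 were 49.7% of all genes after the same correction. Intervals shifted with their ratios lay wholly above 0 for 9 of the 36, against 24.7% of all genes. They lay wholly below 0 for 11, against 23.3%. Trl alone stayed at least 1.5-fold higher (1 of 36, against 5.31% of all genes), and none was 1.5-fold lower (4.63% of all genes). A real difference shared by long, abundant genes would be removed by the same step.

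**Figure D2:**
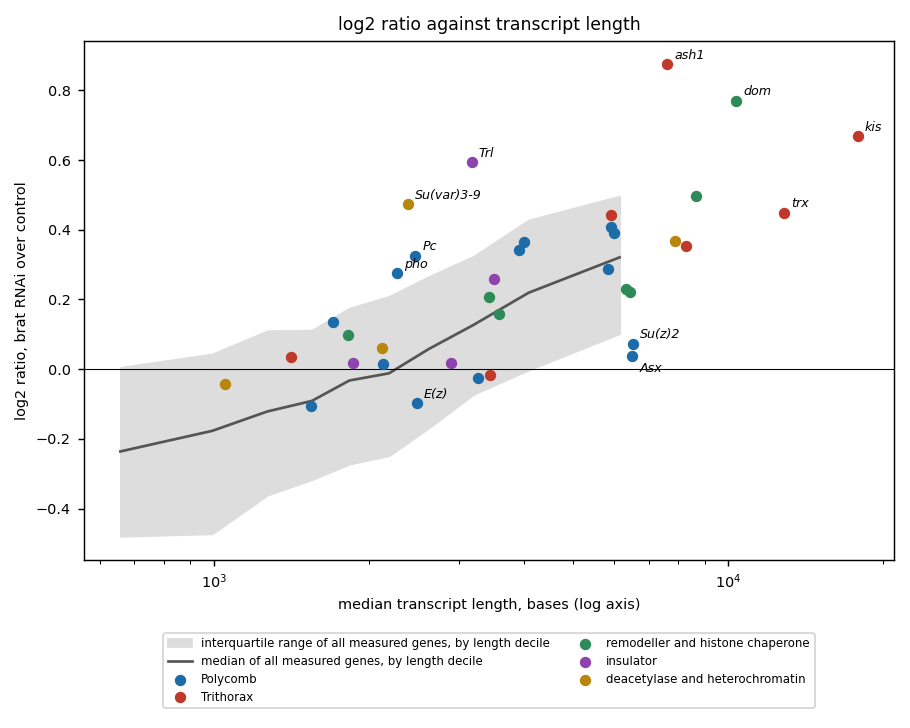
Horizontal axis, median transcript length in bases (log axis); vertical axis, log2 ratio of brat RNAi over control. Coloured points are the 36 regulators, the line is the median of all measured genes in each length decile, and the band is their interquartile range. The line climbs from -0.24 in the shortest to 0.32 in the longest decile, with Pc, pho, Trl and Su(var)3-9 above the band, and ash1, dom and kis highest beyond its right end at 6148.5 bases.

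The 14 Polycomb genes had a median log2 ratio of 0.21 (0.06 with total count scaling), and 8 of their intervals lay above 0. After correction the median was 0.01, with 7 above 0 and 7 below. None was 1.5-fold apart.

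In PRC2, the catalytic methyltransferase and its partner Su(z)12 differed. E(z) (FBgn0000629), which carries the methyltransferase, had 1785 control and 1392 brat RNAi counts, a log2 ratio of -0.10 (-0.20 to 0.00). Su(z)12 (FBgn0020887), needed for the enzyme's activity, had 2340 and 2513 counts, at 0.36 (0.28 to 0.45). The difference between them, E(z) minus Su(z)12, was -0.46 on the log2 scale (-0.59 to -0.33), beyond counting error. Correction for length and level put E(z) at -0.21 and Su(z)12 at 0.03. The third core protein, the WD40 protein esc that reads the methyl mark, had 1329 and 1218 counts, at 0.14 (0.02 to 0.25), below 0 with total count scaling. Its paralogue escl, named after its value was seen, had 381 and 224 counts, at -0.50 (-0.75 to -0.26), and the difference of esc minus escl was 0.64 (0.37 to 0.91). After correction esc was at 0.07 and escl at -0.40. The histone-binding protein Caf1, a PRC2 subunit that several other complexes also hold, is given with the remodellers.

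PRC1 showed most of its subunits higher and its ubiquitin ligase not. Pc, the chromodomain protein that binds the mark made by PRC2, had 880 control and 920 brat RNAi counts, at 0.33 (0.19 to 0.46). Psc, a RING finger protein that partners the ligase, had 1867 and 2043, at 0.39 (0.30 to 0.48). Sce (the fly Ring protein), which ubiquitinates histone H2A, had 1584 and 1229, at -0.10 (-0.21 to 0.00). The 2 partners of that heterodimer thus differed, Psc minus Sce being 0.50 (0.35 to 0.64). After correction for length and level that gap narrowed to 0.01 for Psc and -0.11 for Sce. Scm, a SAM domain protein that links PRC1 to other Polycomb proteins, had 1298 and 1371 counts, at 0.34 (0.23 to 0.45). After correction Pc was at 0.17 and Scm at 0.05.

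The polyhomeotic genes are neighbouring copies on the X chromosome, and reads can be shared between them, so the split of counts is uncertain. ph-p had 3830 control and 3896 brat RNAi counts, at 0.29 (0.22 to 0.35). ph-d had 1731 and 1917, at 0.41 (0.31 to 0.50). Both were higher, and ph-p minus ph-d was -0.12 (-0.24 to -0.01). Correction for length and level turned ph-p to -0.17 (-0.23 to -0.10) and left ph-d at 0.03 (-0.06 to 0.13).

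Su(z)2 is the neighbour and paralogue of Psc and acts partly in its place. It had 236 control and 207 brat RNAi counts, at 0.07 (-0.20 to 0.35), below 0 with total count scaling. Per kilobase it was the scarcest of the 36, with 2.18 in the control and 2.08 with brat RNAi (read pairs per kilobase of transcript, scaled to the library's gene counts as FPKM) against 18.8 and 22.3 for Psc. The difference of ratios, Psc minus Su(z)2, was 0.32 (0.03 to 0.61), but after correction Psc was at 0.01 and Su(z)2 at -0.05.

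The DNA-binding Polycomb proteins pho and phol are related zinc finger proteins that bring the complexes to their target elements. pho had 519 control and 524 brat RNAi counts, at 0.28 (0.10 to 0.45). phol had 1691 and 1386, at -0.03 (-0.13 to 0.08). The difference of pho minus phol was 0.30 (0.09 to 0.51), and it was at least as wide after correction, with pho at 0.26 and phol at -0.19. Per kilobase, phol was the more abundant in both libraries, at 31.3 and 27.9 against 13.8 and 15.2 for pho.

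Asx and calypso together form the deubiquitinase that removes the ubiquitin placed by Sce, with calypso (caly in the current annotation) as the enzyme. Asx had 1627 control and 1394 brat RNAi counts, at 0.04 (-0.07 to 0.14). calypso had 771 and 650, at 0.02 (-0.14 to 0.17). Both intervals held 0, both values were below 0 with total count scaling, and Asx minus calypso was 0.02 (-0.16 to 0.21). After correction Asx was at -0.32, the lowest of the 36, and calypso at 0.00.

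The 7 Trithorax genes covered the widest range, from -0.02 to 0.87, with a median log2 ratio of 0.44 (0.30 with total count scaling) and 5 intervals above 0. Their median transcript is 7607.5 bases long, and after correction their median was 0.00.

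The highest ratio of all 36 was that of ash1 (FBgn0005386), a methyltransferase for a lysine of histone H3 that counters PRC2. It had 1656 control and 2533 brat RNAi counts. It was 1.83-fold higher, at 0.87 on the log2 scale (0.78 to 0.96), and ranked at percentile 97.9 among measured genes. Total count scaling gave 0.73 and correction for length and level 0.50, which is under 1.5-fold. The chromodomain helicase kis (FBgn0086902), which counters Polycomb silencing and promotes transcript elongation, had 14023 and 18601 counts, at 0.67 (0.64 to 0.70). It was 1.59-fold higher, but at 0.53 with total count scaling and 0.22 after correction, on a transcript of 17838 bases, the longest of the 36.

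The methyltransferases of the COMPASS-like complexes were higher without passing 1.5-fold. trx, the founding member, had 3898 control and 4439 brat RNAi counts, at 0.45 (0.39 to 0.51). trr, which marks enhancers, had 1988 and 2119, at 0.35 (0.26 to 0.44). The difference of trx minus trr was 0.10 (-0.01 to 0.20), within counting error, and after correction both lay at 0.00 and -0.02.

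Their shared subunit ash2 had a lower ratio, an order that correction for length and level turned. ash2, which stimulates the methyltransferases, had 2870 control and 2452 brat RNAi counts, at 0.03 (-0.04 to 0.11), below 0 with total count scaling. After correction it was at 0.11 (0.04 to 0.19), above trx and trr. Utx, the demethylase in the trr complex that removes the PRC2 mark, had 1639 and 1352, at -0.02 (-0.12 to 0.09). trr minus Utx was 0.37 (0.23 to 0.51), and correction brought them closer, to -0.02 and -0.18. lid (Kdm5 in the current annotation), which demethylates the mark of active promoters although genetically it belongs to the Trithorax group, had 5011 and 5681, at 0.44 (0.39 to 0.50). It stood level with trx, trx minus lid being 0.01 (-0.08 to 0.09).

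**Figure D3:**
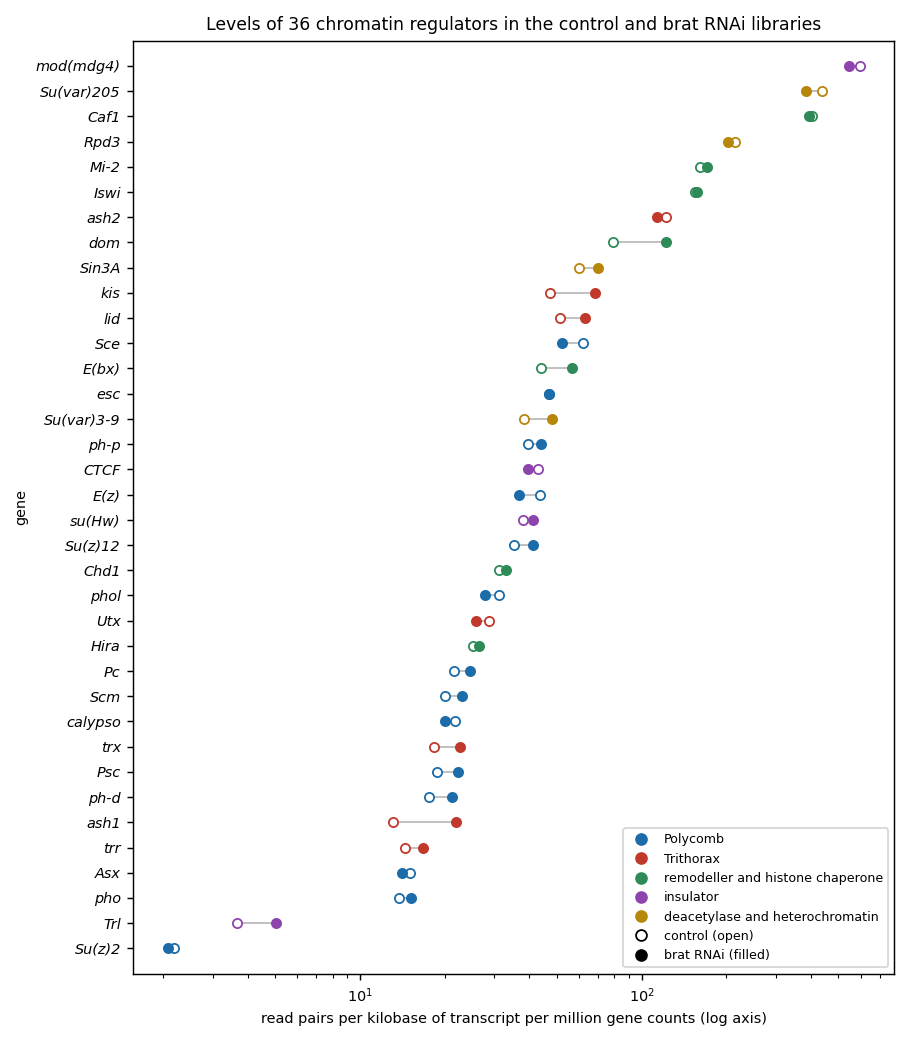
Horizontal axis, read pairs per kilobase of transcript, scaled to the library's gene counts as FPKM (log axis); vertical axis, the 36 regulators ordered by mean level. Open points are the control, filled points the brat RNAi library, coloured by group. Levels run from 2.08 for Su(z)2 to 596 for mod(mdg4), and the widest gaps between libraries are those of ash1, dom, kis and Trl.

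All 7 remodellers and histone chaperones had intervals above 0, with a median log2 ratio of 0.22. With total count scaling 4 of the 7 intervals lay above 0 and 1, that of Caf1, below. After correction 4 were above 0 and 3 below, with a median of 0.04. dom (FBgn0020306), the ATPase of the Tip60 complex that exchanges histone H2A variants, had 13540 control and 19264 brat RNAi counts. Its log2 ratio was 0.77 (0.74 to 0.80), 1.71-fold higher, with 0.63 under total count scaling and 0.32 after correction. It was the second highest of the 36.

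The ISWI family parted between enzyme and partner. Iswi, the ATPase of several spacing complexes, had 9212 control and 8575 brat RNAi counts, at 0.16 (0.12 to 0.20). E(bx), the large subunit that makes the NURF complex from it, had 6320 and 7438, at 0.50 (0.45 to 0.55). Iswi minus E(bx) was -0.34 (-0.40 to -0.27), and after correction the values were -0.11 and 0.04.

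The chromodomain helicases lay closer to the group's median. Mi-2, the ATPase of the NuRD complex, had 17248 control and 16766 brat RNAi counts, at 0.22 (0.19 to 0.25). Chd1, which spaces nucleosomes on transcribed genes, had 3263 and 3194, at 0.23 (0.16 to 0.30). Both changed sign after correction, to -0.23 and -0.15. Chd3, a shorter relative of Mi-2 named after its value was seen, was at 0.45 (0.35 to 0.55), or 0.23 after correction.

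The histone chaperones lay at or below the group's median. Hira, which deposits the replacement histone H3.3, had 1430 control and 1376 brat RNAi counts, at 0.21 (0.10 to 0.31). Caf1 (Caf1-55 in the current annotation), a histone-binding subunit shared by PRC2, NURF, NuRD and the replication chaperone, had 12232 and 10924, at 0.10 (0.06 to 0.14). Total count scaling put Caf1 at -0.04, and after correction Hira was at 0.04 and Caf1 at 0.06. Per kilobase Caf1 was among the most abundant of the 36, with 404 and 393.

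The 4 insulator and boundary proteins had a median log2 ratio of 0.14, which total count scaling took to 0.00. Trl (FBgn0013263), the GAGA factor, which binds GA-rich elements at promoters and Polycomb elements, had 193 control and 243 brat RNAi counts. Its log2 ratio was 0.59 (0.32 to 0.87), 1.51-fold higher, just past the threshold, and 0.45 with total count scaling, 0.57 with TMM (trimmed mean) scaling and 0.63 after correction. In the current annotation, 77.8% of its exon bases also belong to CG42507 or Tsen34 on the same strand, both of them genes of the count tables, and CG42507 had 0 counts in both libraries. Both count tables list read pairs that could not be given to a single gene (0.707% of the control and 0.649% of the brat RNAi table), but not from which genes they came. The annotation behind the counts is an older one whose overlaps may differ, so the level and ratio of Trl are uncertain.

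Of the other insulator proteins, su(Hw) alone had an interval above 0. su(Hw), the DNA-binding protein of the gypsy insulator, had 2205 control and 2200 brat RNAi counts, at 0.26 (0.17 to 0.34). CTCF had 2063 and 1741, at 0.02 (-0.08 to 0.11). mod(mdg4), a BTB protein recruited by su(Hw), had 18400 and 15537, at 0.02 (-0.01 to 0.05). CTCF and mod(mdg4) were below 0 with total count and with TMM scaling. Per kilobase mod(mdg4) was the most abundant of the 36, with 596 and 547, and su(Hw) minus mod(mdg4) was 0.24 (0.15 to 0.33). After correction su(Hw) was at 0.03 and mod(mdg4) at -0.02.

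Among the deacetylase and heterochromatin genes the median log2 ratio was 0.21 (0.07 with total count scaling). Rpd3 (HDAC1 in the current annotation), the histone deacetylase, had 7536 control and 6556 brat RNAi counts, at 0.06 (0.01 to 0.11), below 0 with total count scaling. Sin3A, the scaffold of its main corepressor complex, had 7801 and 8395, at 0.37 (0.32 to 0.41). Rpd3 minus Sin3A was -0.31 (-0.37 to -0.24), yet after correction both lay near -0.10, at -0.10 and -0.09.

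The heterochromatin pair also parted. Su(var)3-9, the methyltransferase that makes the heterochromatin mark, had 1508 control and 1747 brat RNAi counts, at 0.47 (0.37 to 0.57), and at 0.36 after correction. It shares its first exons with eIF-2gamma, which covers 14.8% of its exon bases and stood at 0.32 (0.27 to 0.37), so its count is uncertain. Su(var)205 (HP1a), which binds that mark, had 7584 and 6143, at -0.04 (-0.09 to 0.01), or 0.03 after correction. Its relatives HP1b and HP1c, named after their values were seen, were at -0.05 (-0.17 to 0.07) and -0.30 (-0.44 to -0.17), or -0.08 and -0.14 after correction.

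Other genes of the same kinds spread to both sides of 0. Of 101 measured genes in 5 further lists, 71 ratios were above 0 (70.3%, against 50.4% of all measured genes) and 30 below. Intervals lay wholly above 0 for 58 (57.4%, against 30.7% of all measured genes) and wholly below for 19, against 24.3%. At least 1.5-fold higher were 9 (8.91%, against 5.93% of all measured genes), and 1 was lower, against 8.32%. Their median log2 ratio was 0.20, and -0.03 after correction. Total count scaling left 1 higher, against 2.89% of all measured genes, and 6 lower, against 12.3%. The medians by list were 0.26 for 14 further Polycomb genes, 0.27 for 16 Trithorax and COMPASS genes, 0.19 for 30 remodellers and chaperones, 0.07 for 14 insulator and boundary genes and 0.20 for 27 deacetylase and heterochromatin genes. With total count scaling the insulator median was -0.07, and the others stayed above 0.

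The value farthest from 0 in these lists belonged to Ssrp, a subunit of the histone chaperone FACT. It had 8594 control and 14042 brat RNAi counts, at 0.97 (0.93 to 1.01), and stayed at 0.74 after correction. Its partner dre4 had 13259 and 15125, at 0.45 (0.42 to 0.49) and 0.10 after correction.

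Among the further Polycomb genes E(Pc), a subunit of the Tip60 complex with dom, was at 0.63 (0.58 to 0.68), or 0.18 after correction. The zinc finger gene jing was at 0.20, which correction turned to -0.25. In the Trithorax list 4 genes passed 1.5-fold. Mnn1 (menin) was at 0.70 (0.51 to 0.88), the coactivator Ncoa6 of the trr complex at 0.68 (0.60 to 0.76), the acetyltransferase nej (CBP) at 0.61 and the methyltransferase Mes-4 at 0.59. After correction Mnn1 was at 0.58 and the other three between 0.16 and 0.30. In the heterochromatin list Su(var)2-HP2, a partner of HP1a, was at 0.65, the corepressor Smr at 0.64 and the methyltransferase G9a at 0.61, and all 3 were at or below 0.25 after correction. Ibf2, an insulator binding factor with a short transcript of 708 bases, was the gene at least 1.5-fold lower, at -0.66 (-0.81 to -0.52), or -0.46 after correction. The most abundant boundary genes, lola and Top2, were at 0.21 and 0.40, and correction turned them to -0.05 and -0.06.

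**Figure D4:**
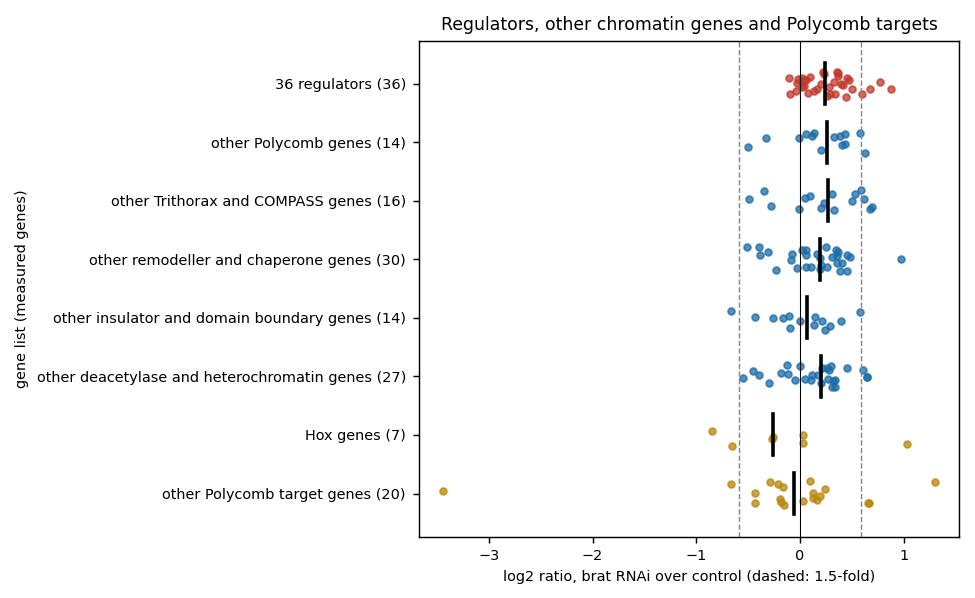
Horizontal axis, log2 ratio of brat RNAi over control; each point is a measured gene, in rows for the 36 regulators, 5 further chromatin lists, the Hox genes and other Polycomb targets. Black bars are medians and dashed lines mark 1.5-fold. Chromatin lists centre between 0.07 and 0.27, while the 7 measured Hox genes, on few counts, scatter around -0.26.

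The classic targets of these proteins gave no shared direction. The Hox genes, which Polycomb keeps silent outside their own body segments, were scarce in both libraries, with 408 control and 300 brat RNAi counts summed over the 7 measured genes. All 7 intervals held 0 with median-of-ratios scaling. With total count scaling 1 lay below 0, and after correction 1, that of Dfd, lay above 0. Dfd, named after its value was seen, had 10 and 17 counts, at 1.03 (-0.18 to 2.32), or 1.35 after correction. Antp had 178 and 124 counts, at -0.26 (-0.60 to 0.08), abd-A had 74 and 51, at -0.28 (-0.82 to 0.26), and lab did not reach the filter. Of 20 other measured Polycomb targets, 10 were above 0 and 10 below, and 3 were at least 1.5-fold apart. Of these 3, 2 were higher (10% of the 20, against 5.93% of all measured genes) and 1 lower (5%, against 8.32%). The eye determination genes so and eya were higher, at 1.30 (1.05 to 1.55) and 0.65 (0.54 to 0.77), or 1.31 and 0.49 after correction. The third, cad, with 26 and 2 counts, was lower, at -3.44 (-6.56 to -1.44). Female germline and yolk protein genes were lower too, at -3.65 in sum, and any part of such tissue in the counts of cad was not tested. At the counts of the Hox genes, a moderate difference was not detectable.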

How the data were processed

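The authors deposited, for 2 libraries, raw counts (read pairs per gene), and a table with log2 fold changes, an adjusted p-value and base means (a signal of normalised counts), per the file headers. The headers name FlyBase annotation 5.44; per the submitters' processing notes the tools were TopHat 1.4.1, BWA 0.6.1, DESeq 1.8.3 and HTSeq. Their roles, the build and the strand setting were not given in the sources used here. Thus reads of antisense neighbours, which overlap exons of 13 regulators, may be counted in either gene. Pairs assigned to no single gene, 22.7% of the control and 27.2% of the brat RNAi table, were left out.

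Counts were divided by median-of-ratios size factors (1.09 and 0.913). With these, all 10987 finite log2 values of the authors' deposited table came out to within 5.77e-15 once their sign was reversed. The deposited values are control over brat RNAi, the opposite of the ratios given here. Intervals are exact (Clopper-Pearson), and a difference between 2 genes has a conditional exact interval for the odds ratio. A gene was called at least 1.5-fold or 2-fold apart when its ratio passed that size and its interval excluded 0. Median transcript lengths came from BDGP6 (Ensembl 115), which held all 36 regulators by identifier (34) or symbol, and 97.1% of measured genes. No coordinates or sequences are given, since no sequence of the files' build was used. Regulators, lists and thresholds were chosen with earlier results of these data known. From each further chromatin or target list, up to 4 genes at least 1.5-fold apart were named by size of ratio, and with fewer than 2 such genes also the 2 most abundant. Python 3.11.15, scipy 1.17.1 and edgeR 4.0.16 (TMM factors only) were used, and the computation was tested on simulated data.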

Additional observations from a re-analysis of the deposited data

Results flagged for a closer look

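Read pairs that fell in no annotated feature made up 26.6% of the brat RNAi count table, against 21.95% of the control's. No ratio uses them. The value is listed because it lay above that of the control, and its part in the ratios of the regulators was not tested.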

How the results depend on the processing

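The median log2 ratio of the 36 regulators was 0.24. Total count scaling, which lowers every ratio by 0.14, gave 0.10 against -0.14 for all measured genes, and correction for transcript length and level gave 0.0061. The 4 regulators at least 1.5-fold higher became 2 with total count scaling (ash1 and dom), 3 with TMM scaling (ash1, kis and dom) and 1 with the correction (Trl). Signs changed for 9, 3 and 15 of the 36 under these 3 settings, in that order, and no value past 1.5-fold changed sign. Dropping the filter on low counts, or requiring a mean normalised count of 100, could not change the median or the counts. All 36 regulators pass either way, and their ratios do not depend on the filter. Without ph-p and ph-d the median was 0.23 with 4 higher, and without Trl and Su(var)3-9, a choice made after seeing the data, 0.23 with 3 higher. Under each of these settings no regulator was 1.5-fold lower or 2-fold apart. Of all measured genes, the call took in 542 higher and 761 lower, against 264 and 1120 with total count scaling. No paired analysis was possible because each group is 1 library, so leaving out a library was not possible either. Counting error is small for most regulators and largest for Su(z)2 and Trl.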
